A study of Mus musculus with 2 samples.

Results

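The Notch pathway was followed through 10 genes: the receptors Notch1, Notch2 and Notch3, the ligands Dll1, Dll3 and Jag1, the target genes Hes1, Hes5 and Hey1, and the DNA-binding factor Rbpj. The members were taken by symbol, and all 10 were found among the 32285 genes of the count matrices. The data were single-nucleus RNA-seq (snRNA-seq) of mouse cerebellum at postnatal day 1, in 2 libraries made from 12 pooled cerebella each. The control library came from littermates without Cre that carried floxed Tox3, given as Tox3f/f in one label and as Tox3f/f or Tox3f/+ in another, and the second library came from Nestin-cre;Tox3f/f conditional knockouts (cKO). Both groups therefore shared a floxed Tox3 allele, and only the cKO carried Nestin-Cre, which acts in neural precursors and their descendants and not in microglia. With 1 library per group, no difference below has a replicate check or a p-value. All intervals are exact 95% intervals that cover counting error only, and not how animals or dissections differ.

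Notch receptors are membrane proteins that are cut when a ligand on a neighbouring cell binds them. The freed intracellular domain enters the nucleus, joins Rbpj and turns on genes of the Hes and Hey families, which repress neuronal differentiation. In the developing cerebellum, Notch signalling is known for maintaining progenitors and for the formation of Bergmann glia, the radial astroglia of the cerebellar cortex.

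After filtering, 4667 control nuclei with 20546345 UMIs (unique molecular identifiers, 1 per captured transcript) and 6555 nuclei of the cKO-labelled library with 30147400 UMIs were kept, with medians of 3978 and 4025 UMIs per nucleus. Tox3 itself had 104 CPM (UMIs of a gene per 1000000 UMIs) in control and 119 in the other library, a ratio of 1.14 (1.08 to 1.2). UMIs per gene do not show whether the floxed segment was transcribed, so Tox3 did not check the genotype, and the second library is called cKO-labelled throughout. The libraries shared 9 barcodes. Low-depth nuclei, those of clusters 1 and 4 together, had medians of 619 UMIs in control and 575 in the cKO-labelled library. They made up 21.7% and 10.7% of these libraries, and nuclei named as granule neuron progenitors (GNP-like) 11.1% and 1.74%. Astroglial nuclei, the sum of 2 clusters named Bergmann glia-like, made up 6.88% and 12.2%, and GABAergic interneuron-like nuclei 10.0% and 16.9%. A level over a whole library moves with such shares, so the levels within classes are given beside it.

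The promoter letters bear on the members because Rbpj binds the letters TGGGAA, and proneural factors such as Atoh1, the partner of Tox3 in GNPs in this study, bind E-boxes, CANNTG. RefSeq promoter windows, the 250 bases before a start on GRCm38.p6, covered 8 of the 10 members in 10 windows. Hes1 and Hey1 had no window. Hes5 is shown since its window held the RBPJ letters in a pair, in capitals, 226 bases before the start on the minus strand and 82 bases before it on the plus strand (chr4:154960673-154960922, plus strand).

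Hes5: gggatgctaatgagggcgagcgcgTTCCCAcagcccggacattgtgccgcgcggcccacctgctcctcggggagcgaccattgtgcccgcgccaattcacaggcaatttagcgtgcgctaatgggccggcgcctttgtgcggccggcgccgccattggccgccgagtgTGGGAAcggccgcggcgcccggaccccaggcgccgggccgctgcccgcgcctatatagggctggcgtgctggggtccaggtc

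The upstream window of Dll1 is shown for its 3 E-boxes, in capitals (chr17:15376933-15377182, minus strand). Notch3 is shown as a member with neither set of letters (chr17:32166891-32167140, minus strand).

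Dll1: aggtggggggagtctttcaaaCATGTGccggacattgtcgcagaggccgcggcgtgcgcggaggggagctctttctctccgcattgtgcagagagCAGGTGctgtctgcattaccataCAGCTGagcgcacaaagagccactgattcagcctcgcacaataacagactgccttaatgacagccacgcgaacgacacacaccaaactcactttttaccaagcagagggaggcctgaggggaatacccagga

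Notch3: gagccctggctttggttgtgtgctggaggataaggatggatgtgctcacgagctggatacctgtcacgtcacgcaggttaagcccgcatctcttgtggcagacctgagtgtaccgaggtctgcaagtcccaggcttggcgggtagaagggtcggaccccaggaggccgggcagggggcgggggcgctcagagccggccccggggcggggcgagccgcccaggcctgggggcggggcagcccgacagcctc

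Over both strands, TGGGAA was present in 2 of the 8 members, Hes5 and Rbpj, each with 2 matches in a window. Among all 32851 RefSeq promoter windows, 21.6% held it and 2.77% held it at least 2 times. CANNTG was present in 5 of 8 members and in 66.2% of all windows, and 31.8% of all windows held it at least 2 times. No RBPJ match overlapped an E-box. These are matches of letters, not sites shown to be bound.

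The whole-library levels were compared first. Of the 10 members, Notch1 was at least 1.5-fold higher in the cKO-labelled library, Dll3 and Hey1 were at least 1.5-fold lower, and 7 lay within 1.5-fold. Of all 15627 genes that had 100 UMIs or more in the libraries together, 3.95% were at least 1.5-fold higher and 4.73% lower. The median log2 ratio was 0.22 over the members and -0.02 over all these genes. Ratios were then taken within 14 cluster groups that had at least 20 nuclei per library. Of the 94 member ratios with at least 10 UMIs, 7 had an interval above 1 and 2 an interval below 1. Of 173714 such ratios over all genes, the interval lay above 1 in 5.02% and below 1 in 5.93%, so 9 of 94 is near what all genes show.

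**Figure D1:**
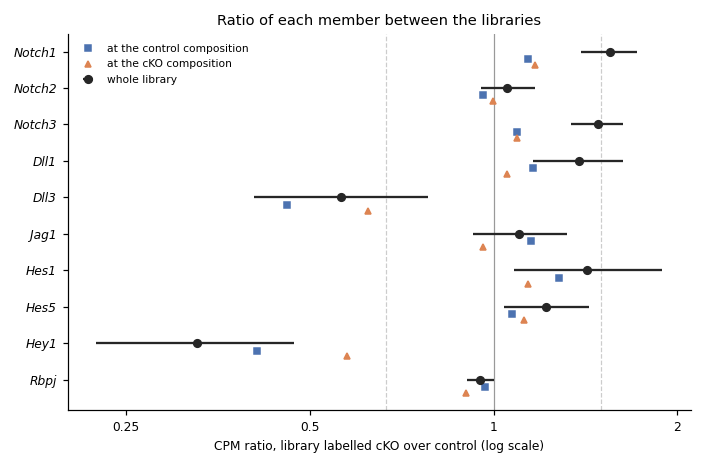
Whole-library CPM ratio of each member, cKO-labelled library over control, on a log axis (black points, with exact 95% counting intervals), and the same ratio with the classes held at the control shares (squares) or at the cKO shares (triangles). Dashed lines mark 1.5-fold. The ratios of Notch1 and Notch3, 1.55 and 1.48, lie nearer 1 with the class shares held the same, at 1.14 and 1.09 with control shares, while those of Hey1 and Dll3 stay below 1.

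Notch1 (chromosome 2, 26457903 to 26516663, minus strand, GRCm38), the receptor best known in neural progenitors, had 516 UMIs in control and 1170 in the cKO-labelled library. These were levels of 25.1 CPM (23 to 27.4) and 38.8 CPM (36.6 to 41.1), a ratio of 1.55 (1.39 to 1.72). With every class given its control share of UMIs, the ratio was 1.14, and with the cKO shares it was 1.17. Astroglial nuclei held 61.6% of all Notch1 UMIs in control and 68.2% in the cKO-labelled library. Within astroglial nuclei the level was 223 CPM (199 to 249) and 262 CPM (244 to 281), a ratio of 1.18 (1.03 to 1.34). The first of the 2 astroglial clusters had 217 and 265 CPM and a ratio of 1.22 (1.05 to 1.43), while the second had 240 and 254 CPM and a ratio of 1.06 (0.817 to 1.38). Granule neuron-like (GN-like) nuclei were low, with 3.60 and 5.07 CPM. The 2 astroglial clusters did not differ in Notch1 beyond counting error in either library.

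The highest Notch1 level was in cluster 23, which stayed unnamed. It scored best for Bergmann glia markers, but more of its leading genes were markers of GABAergic progenitors. Its first leading genes were Nphs1, Kirrel2, Cyp26b1, Gm38505 and Pax3, and it held 19 control nuclei and 69 of the cKO-labelled library. Notch1 was at 272 CPM (166 to 420) there in control and 374 CPM (296 to 466) in the cKO-labelled library. In the latter, this lay above the next cluster, the first astroglial one, by a ratio of 1.41 (1.10 to 1.79), and in control the order of the 3 highest was not beyond counting error. Oligodendrocyte lineage-like nuclei had 68.0 and 92.1 CPM, and a small cluster led by Mrc1 had 106 and 77.1 CPM on 6 and 13 UMIs. In GNP-like nuclei Notch1 had 35 and 4 UMIs, 17 and 9.50 CPM, and the ratio of 0.559 had an interval from 0.144 to 1.56. With each nucleus gated on its own markers the ratio was 2.24. A difference in GNP-like nuclei was not detectable at this depth.

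Notch2 (chromosome 3, 98013527 to 98150361, plus strand), a receptor used in neural and immune cells, had 618 and 956 UMIs. Its whole-library level was 30.1 CPM (27.8 to 32.5) in control and 31.7 CPM (29.7 to 33.8) in the cKO-labelled library, a ratio of 1.05 (0.952 to 1.17). The level was highest in cluster 24, named microglia-like by its markers and led by Mrc1, Dab2 and F13a1, with 247 CPM (135 to 415) and 291 CPM (215 to 384). The first astroglial cluster had 176 and 155 CPM, and the other microglia-like cluster 112 and 173 CPM. In the cKO-labelled library, cluster 24 exceeded its nearest neighbour in this order beyond counting error, with a ratio of 1.68 (1.10 to 2.58), and in control it did not.

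In progenitors Notch2 was counted well enough for a ratio. Control GNP-like nuclei had 101 Notch2 UMIs, 49.0 CPM (39.9 to 59.6), and those of the cKO-labelled library had 14, 33.2 CPM (18.2 to 55.8). The ratio of 0.678 had an interval from 0.358 to 1.19, and with each nucleus gated on its own markers it was 1.27, so its direction depends on how the class is drawn. In the granule lineage (GNP-like plus GN-like nuclei) the ratio was 0.756 (0.596 to 0.956), and in GN-like nuclei alone, with 14.6 and 16.8 CPM, it was 1.15 (0.857 to 1.55). GNP-like nuclei were 517 of the 1660 nuclei of this lineage in control and 114 of 1580 in the cKO-labelled library, and their part in the lineage ratio was not tested. Oligodendrocyte lineage-like nuclei had 0 Notch2 UMIs in 76 control nuclei and 3 in 254 nuclei of the cKO-labelled library. The same nuclei had 24 and 93 UMIs of Notch1.

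Notch3 (chromosome 17, 32120820 to 32166852, minus strand), a receptor also known in vessel walls, had 591 and 1281 UMIs. Its whole-library level was 28.8 CPM (26.5 to 31.2) in control and 42.5 CPM (40.2 to 44.9) in the cKO-labelled library, a ratio of 1.48 (1.34 to 1.63). With the class shares held the same, the ratio was 1.09 under either set of shares. Within astroglial nuclei Notch3 was at 202 CPM (180 to 227) and 242 CPM (225 to 260), a ratio of 1.2 (1.04 to 1.38). The first astroglial cluster had 181 and 232 CPM, a ratio of 1.28 (1.09 to 1.52), and the second had 269 CPM in both libraries, a ratio of 0.998 (0.780 to 1.29). In control the second cluster lay above the first by 1.49 (1.15 to 1.91), and in the cKO-labelled library by 1.16 (0.985 to 1.36).

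Notch3 was also seen in several classes of neurons. Purkinje cell-like nuclei had 35.3 and 31.3 CPM and glutamatergic cerebellar nuclear neuron-like (CN-like) nuclei 34.3 and 40.6 CPM, against 3.95 and 4.12 CPM of the same gene in GN-like nuclei. GABAergic interneuron-like nuclei had 22.3 and 18.7 CPM, and the unnamed cluster 19 had 28.8 and 42.2 CPM. In GNP-like nuclei Notch3 had 9 UMIs in control and 0 in the cKO-labelled library, and the interval of the ratio reached 2.48. Both microglia-like clusters had 0 Notch3 UMIs in both libraries. The gene Gm17276, on the opposite strand of Notch3, had 591 and 1117 UMIs and a like pattern, with 172 and 165 CPM in astroglial nuclei. For Notch1 the opposite strand gene 0610009E02Rik had 298 and 462 UMIs. Whether reads of these pairs were shared was not tested.

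**Figure D2:**
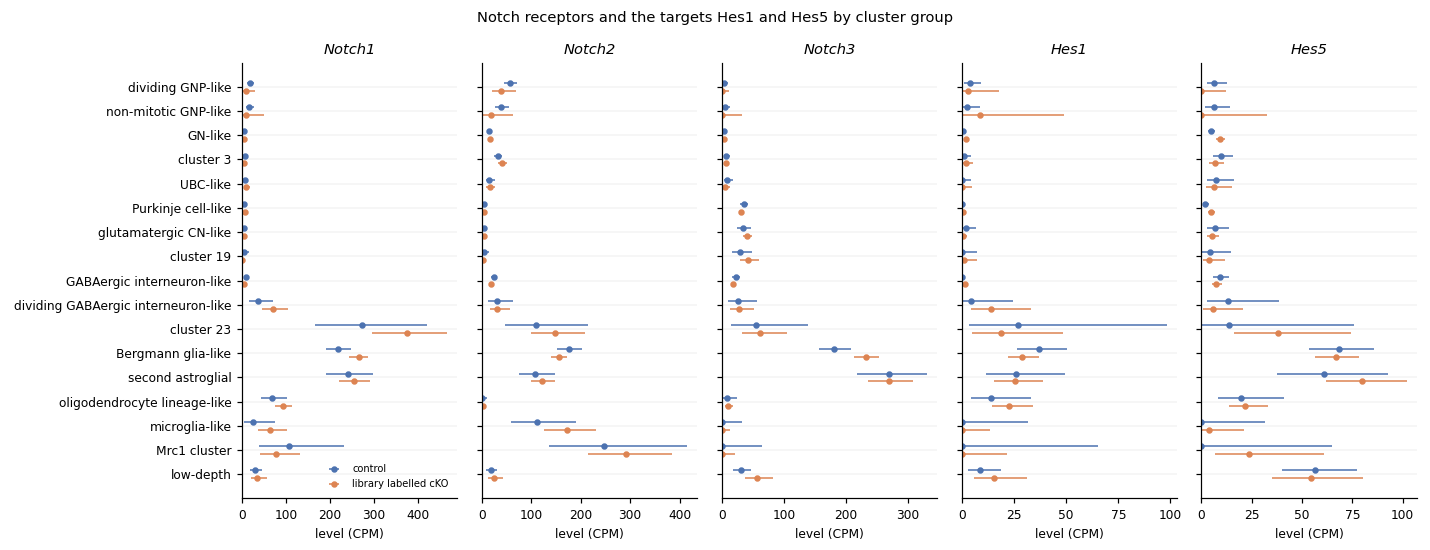
Level in CPM of Notch1, Notch2, Notch3, Hes1 and Hes5 in each cluster group (points, with exact 95% Poisson intervals) for control in blue and the cKO-labelled library in orange, on linear axes that start at 0. The astroglial groups lie to the right for all 5 genes, and for Notch2 the cluster led by Mrc1 does too, at 247 and 291 CPM.

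Receptors were read in the same nuclei. At least 1 UMI of any of the 3 receptors was found in 88.2% (84.1 to 91.5%) of control astroglial nuclei and 87.2% (84.6 to 89.4%) of those of the cKO-labelled library, against 22.8% and 14% of GNP-like and 10.1% and 9.82% of GN-like nuclei. Depths differed between these classes, and with each nucleus thinned to 1000 UMIs the shares were 44.2% and 47.1%, 6.75% and 3.84%, and 2.23% and 2.47%. Notch1 and Notch2 were found together in 93 of the 191 control astroglial nuclei with Notch1 and in 209 of 473 in the cKO-labelled library. These are 48.7% and 44.2%, and among astroglial nuclei without a Notch1 UMI 41.5% and 32.5% had Notch2. The nuclei with Notch1 were also the deeper ones, with medians of 4389 against 4097.5 UMIs in control and 3838 against 3281 in the other library.

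Free RNA in droplets can place UMIs in nuclei that do not express a gene. Microglia-like nuclei, outside the neural lineage, had a Notch1 UMI in 8.82% (3 of 34) of control and 14% (14 of 100) of the cKO-labelled library, at medians of 2920 and 2497.5 UMIs. The unthinned shares with Notch1 in GNP-like nuclei, 5.61% and 3.51%, and in GN-like nuclei, 1.75% and 2.05%, lie at or below these. The microglia-like level of Notch1 was 25.8 CPM on 3 UMIs in control and 63.8 CPM on 17 UMIs in the cKO-labelled library. The whole-library levels were 25.1 and 38.8 CPM. Whether these nuclei measure free RNA of Notch1 alone was not tested, nor was the part of free RNA in the low shares. Astroglial nuclei, with 59.5% and 59.0% at medians of 4276 and 3618.5 UMIs, lay above all of these. After thinning, the Notch1 share was 20.5% and 22.7% in astroglial and 2.66% and 5.91% in microglia-like nuclei.

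Dll1 (chromosome 17, 15367354 to 15376872, minus strand), a ligand made by cells that leave the progenitor state, had 207 and 418 UMIs. Its whole-library level was 10.1 CPM (8.75 to 11.5) and 13.9 CPM (12.6 to 15.3), a ratio of 1.38 (1.16 to 1.63), and 1.16 or 1.05 with the class shares held at those of control or cKO. GABAergic interneuron-like nuclei had the most UMIs of any named class, 93 and 201 UMIs. Their levels of 35.1 CPM (28.3 to 43.0) and 36.9 CPM (31.9 to 42.3) gave a ratio of 1.05 (0.817 to 1.36). The dividing interneuron-like cluster was close to them, with 43.9 and 42.6 CPM. Cluster 23 was highest, with 109 CPM (47.0 to 214) on 8 UMIs and 128 CPM (84.2 to 186) on 27.

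In GN-like nuclei Dll1 was low in both libraries but higher in the cKO-labelled library. Control had 14 UMIs in 13 of 1143 nuclei, 2.40 CPM (1.31 to 4.03), and the cKO-labelled library had 40 UMIs in 38 of 1466 nuclei, 6.33 CPM (4.53 to 8.63). The ratio was 2.64 (1.40 to 5.25), and it lay between 1.55 and 2.79 under the other ways of drawing the class. Cluster 3, with 373 and 436 nuclei, had enough granule neuron markers to be named so. It stayed unnamed because more of its leading genes were markers of the CN-like class. GN-like and granule lineage values therefore leave it out. It had 6 and 11 Dll1 UMIs, a ratio of 1.55 (0.525 to 5.10). In GN-like nuclei the share with a UMI, 1.14% and 2.59%, was near that of microglia-like nuclei, 2.94% (1 of 34) and 0 of 100. The part of free RNA in the GN-like ratio was not tested. CN-like nuclei went the other way, with 12 and 13 UMIs, 11.4 and 4.48 CPM and a ratio of 0.391 (0.164 to 0.938).

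Dll3 (chromosome 7, 28293553 to 28302238, minus strand), a ligand relative that acts inside the cell that makes it, had 86 and 71 UMIs. Its whole-library level was 4.19 CPM (3.35 to 5.17) in control and 2.36 CPM (1.84 to 2.97) in the cKO-labelled library, a ratio of 0.563 (0.405 to 0.780). The ratio was 0.458 at the control shares, 0.623 at the cKO shares and 0.690 without GNP-like nuclei. In control GNP-like nuclei Dll3 had 22 UMIs in 21 of 517 nuclei, 10.7 CPM (6.69 to 16.2), and in the cKO-labelled library it had 0 UMIs in 114 nuclei. With the 0 set at 3 counts the level was 1.5-fold lower, a value that leaves out counting error in control. The exact interval of the ratio reached 0.893. The dividing and the non-mitotic GNP-like cluster each had 11 and 0 UMIs, and their intervals reached 1.61 and 2.85.

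The granule lineage as a whole had 37 and 5 Dll3 UMIs, 4.69 CPM (3.30 to 6.46) and 0.742 CPM (0.241 to 1.73), a ratio of 0.158 (0.0486 to 0.404). GN-like nuclei alone had 15 and 5 UMIs, a ratio of 0.308 (0.0875 to 0.891). The part that the smaller share of GNP-like nuclei in the cKO-labelled library has in the lineage ratio was not tested. Cluster 3 had 2 and 2 UMIs, a ratio of 0.844 (0.0612 to 11.7). Outside this lineage Dll3 was highest in oligodendrocyte lineage-like nuclei, with 34.0 CPM (17.6 to 59.4) and 26.7 CPM (17.6 to 38.9), a ratio of 0.786 (0.385 to 1.70). Under the gate on markers, control nuclei gated as erythroid ranked above them. The unthinned share with a Dll3 UMI in control microglia-like nuclei was 5.88% on 2 of 34 nuclei, above the 4.06% of control GNP-like nuclei, and their level of 25.8 CPM (5.33 to 75.5) on 3 UMIs lay above the 10.7 CPM of GNP-like nuclei. The part of free RNA in the GNP-like value was not tested.

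Jag1 (chromosome 2, 137081456 to 137116644, minus strand), the Serrate-type ligand of the list, had 209 and 338 UMIs. Its whole-library level of 10.2 CPM (8.84 to 11.6) and 11.2 CPM (10.0 to 12.5) gave a ratio of 1.10 (0.925 to 1.32). Astroglial nuclei had 35.7 CPM (26.6 to 47.0) and 34.8 CPM (28.5 to 42.1), a ratio of 0.975 (0.692 to 1.39). The dividing interneuron-like cluster had 43.9 and 45.5 CPM, against 9.44 and 9.90 CPM in the other interneuron-like nuclei. Cluster 23 had 81.6 CPM (29.9 to 178) on 6 UMIs and 37.9 CPM (16.3 to 74.6) on 8, and the order of the highest classes was not beyond counting error in either library.

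In GNP-like nuclei the Jag1 level was higher in the cKO-labelled library. Control had 17 UMIs in 16 of 517 nuclei, 8.25 CPM (4.81 to 13.2), and the cKO-labelled library had 12 UMIs in 11 of 114 nuclei, 28.5 CPM (14.7 to 49.8). The ratio was 3.45 (1.5 to 7.67), and it lay between 3.22 and 3.93 under the other scalings, clusterings and the gate on markers. The dividing GNP-like cluster gave 4.05 (1.42 to 11.5), and the non-mitotic one, on 8 and 3 UMIs, 2.69 (0.459 to 11.2). A Jag1 UMI was found in 2 of 34 and 1 of 100 microglia-like nuclei, against 3.09% and 9.65% of GNP-like nuclei. After thinning, 0.861% of control and 2.58% of cKO-labelled GNP-like nuclei had a Jag1 UMI.

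Both summed levels of glial markers in GNP-like nuclei were also higher in the cKO-labelled library. The summed level of 7 Bergmann glia markers in GNP-like nuclei was 450 CPM in control and 636 CPM in the cKO-labelled library, against 9460 and 9177 CPM in astroglial nuclei, and that of 7 parenchymal astrocyte markers 313 and 582 CPM. All 7 Bergmann glia markers had UMIs in both libraries, and of the astrocyte markers Gfap and Agt were at 0 in the cKO-labelled library. Of the 11 Jag1 nuclei of the cKO-labelled library, 11 had a UMI of a GNP marker, 11 of a Bergmann glia marker and 1 of a GABAergic interneuron marker. Among the 103 GNP-like nuclei without Jag1, 87 had a Bergmann glia marker UMI. The nuclei with Jag1 were deeper, with a median of 4667 UMIs against 3421. In control, 12 of the 16 GNP-like nuclei with Jag1 and 387 of the 501 without it had a Bergmann glia marker UMI. In the cKO-labelled library, 3 of the 4 GNP-like nuclei with Notch1 also had Jag1, and in control 1 of 29 did. The part of glial RNA in the Jag1 value was not tested.

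**Figure D3:**
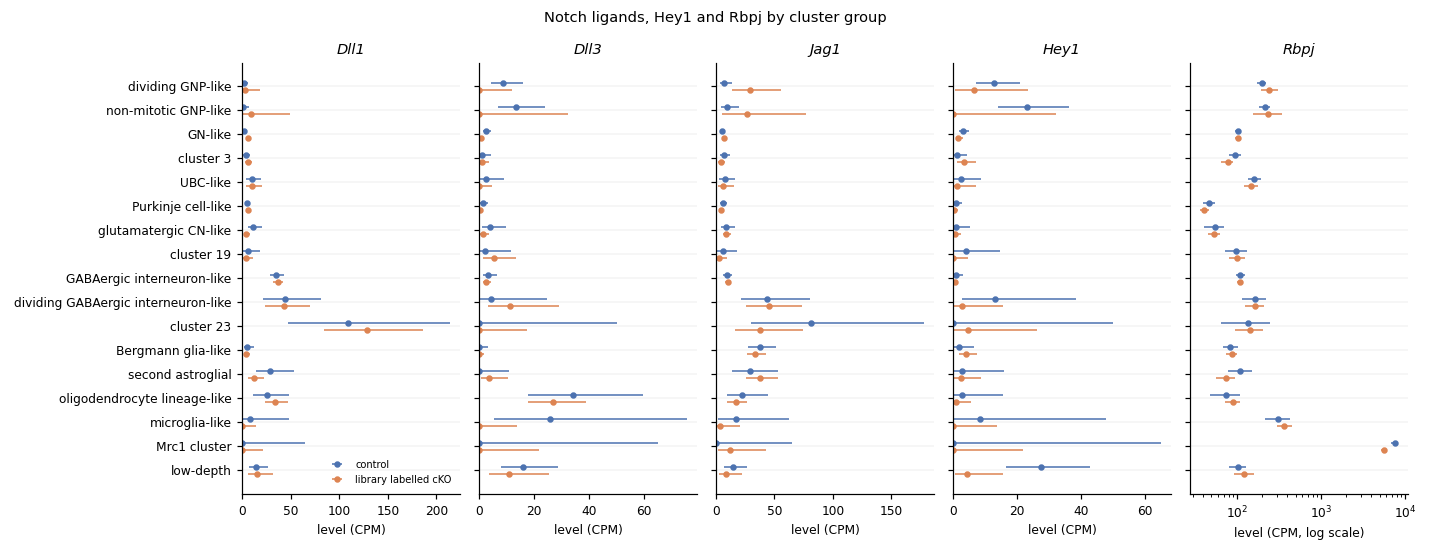
Level in CPM of Dll1, Dll3, Jag1, Hey1 and Rbpj in each cluster group (points, with exact 95% Poisson intervals), control in blue and the cKO-labelled library in orange, on linear axes except for Rbpj, whose axis is logarithmic. Dll1 is highest in cluster 23 at 109 and 128 CPM, Dll3 in oligodendrocyte lineage-like nuclei, and Rbpj in the cluster led by Mrc1 at 7574 and 5594 CPM.

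Hes1 (chromosome 16, 30064384 to 30067796, plus strand), a repressor of proneural genes, was counted rarely, with 78 and 163 UMIs. Its whole-library level was 3.8 CPM (3.00 to 4.74) and 5.41 CPM (4.61 to 6.30), a ratio of 1.42 (1.08 to 1.89), and 1.28 or 1.14 with the class shares held at those of control or cKO. Astroglial nuclei had 49 and 85 UMIs, 34.3 CPM (25.4 to 45.4) and 27.9 CPM (22.3 to 34.5), a ratio of 0.814 (0.566 to 1.18). Outside astroglia the counts were few and the ratios went both ways. GN-like nuclei had 4 and 14 UMIs, a ratio of 3.23 (1.01 to 13.5), and all interneuron-like nuclei 1 and 14, a ratio of 6.94 (1.06 to 293). CN-like nuclei had 2 and 2 UMIs, a ratio of 0.361 (0.0262 to 4.98), cluster 23 had 2 and 4, a ratio of 0.696 (0.0998 to 7.70), and oligodendrocyte lineage-like nuclei had 5 and 23, a ratio of 1.61 (0.597 to 5.41). Microglia-like nuclei had 0 Hes1 UMIs in both libraries.

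Hes5 (chromosome 4, 154960923 to 154962371, plus strand), the Hes gene most tied to Notch in neural progenitors and the one whose promoter is shown above, had 246 and 441 UMIs. Its whole-library level was 12.0 CPM (10.5 to 13.6) in control and 14.6 CPM (13.3 to 16.1) in the cKO-labelled library, a ratio of 1.22 (1.04 to 1.43), and 1.07 or 1.12 with the class shares held. Astroglial nuclei had 66.5 CPM (53.8 to 81.3) and 70.3 CPM (61.2 to 80.4), a ratio of 1.06 (0.826 to 1.36). Thus the astroglial ratio of Hes5 did not depart from 1 beyond counting error, where those of Notch1 and Notch3 did, and the difference between these ratios was not tested. The low-depth nuclei held a level of 56.5 and 54.5 CPM, near that of astroglia, on 39 and 25 UMIs.

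In GN-like nuclei Hes5 had 28 UMIs in control, 4.80 CPM (3.19 to 6.94), and 58 in the cKO-labelled library, 9.19 CPM (6.97 to 11.9), a ratio of 1.91 (1.20 to 3.12). With each nucleus gated on its own markers instead of its cluster, the ratio was 0.940, so its direction depends on how the class is drawn. Cluster 3 had 16 and 13 Hes5 UMIs, a ratio of 0.686 (0.304 to 1.52). Purkinje cell-like nuclei had 5 and 28 UMIs, 1.65 CPM (0.536 to 3.85) and 4.68 CPM (3.11 to 6.77), a ratio of 2.84 (1.08 to 9.41). Control GNP-like nuclei had 13 Hes5 UMIs, and the 114 nuclei of the cKO-labelled library had 0, with an interval of the ratio that reached 1.60 and a ratio of 2.51 under the gate on markers. In both libraries the levels of these classes lay below the astroglial interval. The unthinned share with a Hes5 UMI was 2.45% and 3.82% in GN-like nuclei and 0 of 34 and 1 of 100 in microglia-like nuclei.

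Hey1 (chromosome 3, 8663359 to 8667256, minus strand), a Hes relative, was the member with the lowest ratio. It had 94 UMIs in control, 4.58 CPM (3.70 to 5.60), and 45 in the cKO-labelled library, 1.49 CPM (1.09 to 2.0), a ratio of 0.326 (0.223 to 0.470). The ratio was 0.409 and 0.574 with the class shares held at control and cKO, and 0.453 without GNP-like nuclei. GNP-like nuclei held 37.2% of the Hey1 UMIs of control and 4.44% of those of the cKO-labelled library.

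Within GNP-like nuclei Hey1 had 35 UMIs in 30 control nuclei, 17 CPM (11.8 to 23.6), and 2 UMIs in 2 nuclei of the cKO-labelled library, 4.75 CPM (0.575 to 17.2). The interval of the ratio of 0.279, from 0.0326 to 1.09, still held 1. In the granule lineage the counts were 54 and 13, 6.85 CPM (5.14 to 8.93) and 1.93 CPM (1.03 to 3.30), a ratio of 0.282 (0.141 to 0.524). GN-like nuclei alone gave 0.534 (0.230 to 1.18), so the interval held 1 in GNP-like and in GN-like nuclei taken apart. GNP-like nuclei were 517 of the 1660 lineage nuclei in control and 114 of 1580 in the cKO-labelled library. The part of these shares in the lineage ratio of Hey1 was not tested. Cluster 3, left out of this lineage, went the other way on 2 and 7 UMIs, a ratio of 2.96 (0.563 to 29.2). Low-depth nuclei also differed, with 19 and 2 Hey1 UMIs and a ratio of 0.158 (0.0179 to 0.656), and without them the whole-library ratio was 0.383. In astroglial nuclei Hey1 had 3 and 11 UMIs, 2.1 and 3.61 CPM, and astroglia held 24.4% of its UMIs in the cKO-labelled library. In control Hey1 was at 27.5 CPM in the low-depth nuclei, which the order of classes leaves out. Of the ranked classes, the non-mitotic GNP-like cluster was highest at 23.3 CPM, against 1.85 CPM in the first astroglial cluster. Neighbours in this order did not differ beyond counting error. In the cKO-labelled library the highest level rested on 2 UMIs and did not exceed that of the first astroglial cluster beyond counting error (ratio 1.60, 0.169 to 7.75). A Hey1 UMI was found in 1 of 34 and 0 of 100 microglia-like nuclei.

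**Figure D4:**
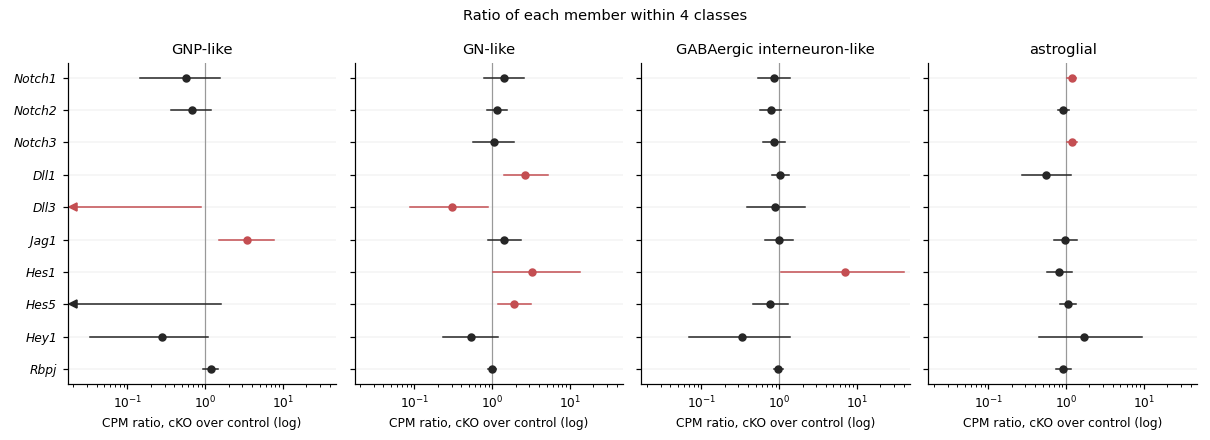
CPM ratio of each member, cKO-labelled library over control, within GNP-like, GN-like, GABAergic interneuron-like and astroglial nuclei, on a log axis with exact 95% counting intervals. Members with under 10 UMIs in a class are left out, lines end at the axis limits, a left arrow is a member with 0 UMIs in the cKO-labelled library, and red marks intervals that exclude 1. Jag1 in GNP-like nuclei, at 3.45, and Dll1 and Hes5 in GN-like nuclei, at 2.64 and 1.91, lie to the right of 1.

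Within 4 classes, members with at least 100 UMIs in the class were set beside all genes with as many, since fewer UMIs make a large ratio likely. In GNP-like nuclei 2 of 10 members reached this, Notch2 and Rbpj, and neither was past 1.5-fold, beside 7.80% of all genes higher and 11.8% lower. In GN-like nuclei 2 members reached it, again with 0 past 1.5-fold, beside 2.28% and 2.34%. In astroglial nuclei 7 members reached it with 0 past 1.5-fold, beside 2.85% and 2.09%, and in interneuron-like nuclei 5 members with 0, beside 1.07% and 1.34%.

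Rbpj (chromosome 5, 53466152 to 53657362, plus strand), the DNA-binding partner of all cut Notch receptors, was seen in 33.2% of all control nuclei and 30.5% of those of the cKO-labelled library. It had 2608 UMIs in control, 127 CPM (122 to 132), and 3638 in the cKO-labelled library, 121 CPM (117 to 125), a ratio of 0.951 (0.904 to 1.00). One cluster stood apart. In cluster 24, the microglia-like cluster led by Mrc1, every nucleus had an Rbpj UMI, 19 of 19 in control and 52 of 52 in the cKO-labelled library. Its levels were 7574 CPM (6874 to 8325) and 5594 CPM (5243 to 5963), with up to 55 and 70 UMIs in 1 nucleus.

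These were 24.4 (17.4 to 35.4) and 15.2 (12.3 to 18.9) times the levels of the other microglia-like cluster, which had 310 and 368 CPM and came next. Cluster 24 held 429 and 943 of the Rbpj UMIs. Without it the whole-library level was 106 CPM in control and 89.9 CPM in the cKO-labelled library, a ratio of 0.845. The ratio within the cluster was 0.739 (0.658 to 0.830), on only 19 control nuclei. On the opposite strand of Rbpj lie Gm10441 and Gm40304, with 20 and 39 and with 15 and 26 UMIs, of which 19 and 36 and then 12 and 19 were in this cluster.

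In the neural lineage Rbpj varied less. GNP-like nuclei had 204 CPM (185 to 224) and 242 CPM (197 to 294), a ratio of 1.19 (0.947 to 1.48), and GN-like nuclei 104 CPM in both libraries, a ratio of 0.998 (0.892 to 1.12). All interneuron-like nuclei had 114 and 112 CPM and astroglial nuclei 90.4 and 83.5 CPM. Purkinje cell-like nuclei were lowest of these, with 46.5 and 41.3 CPM. Levels in both granule classes lay above that of Purkinje cell-like nuclei, with intervals that did not overlap. Unlike the receptors, Hes1 and Hes5, Rbpj was not highest in astroglia among named neural classes.

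Genes with the most similar pattern were looked up for each member with at least 200 UMIs, as Pearson's r of log2(CPM + 5) over 32 points, 16 cluster groups in 2 libraries. The points share libraries and differ in depth, so r is a description. Notch1 was most like Ednrb (r = 0.920), Calcrl (0.910) and Zfp36l1 (0.901), and Notch2 most like Dhrs3 (0.888), Pon2 (0.879) and Litaf (0.864). Notch3 was most like Thbs3 (0.918), its opposite strand gene Gm17276 (0.913) and Limch1 (0.900). Dll1 was most like Ptpn4 (0.801), Gm38505 (0.791) and Sox2ot (0.783), and Jag1 most like Mmp14 (0.884), Pax3 (0.876) and 8030453O22Rik (0.865). Hes1 was most like Rftn2 (0.926), AI849053 (0.923) and Plpp3 (0.921), and Hes5 most like Plce1 (0.885), Prrx1 (0.871) and Pcx (0.867). Rbpj was most like Nfxl1 (0.934), Snx6 (0.933) and Dmxl1 (0.924).

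The rest of the pathway was read from a list of 53 other genes, which held further ligands, enzymes that cut or glycosylate receptors, regulators of endocytosis and turnover, co-activators, co-repressors and the rest of the Hes and Hey family. Of these, 44 had at least 100 UMIs over both libraries, and 0 were at least 1.5-fold higher and 2 at least 1.5-fold lower in the cKO-labelled library. Over all 15627 genes with as many UMIs, 3.95% were higher and 4.73% lower, so neither count exceeds that background. The median log2 ratio of the 44 was -0.09.

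The lower genes were Mfng and Hes6. Mfng, a fringe enzyme that adds sugars to Notch receptors, had 143 and 62 UMIs, a ratio of 0.295 (0.216 to 0.401). Its level in GNP-like nuclei was 30.6 and 28.5 CPM, a ratio of 0.931, while at the control and cKO class shares the ratio was 0.681 and 0.474. Hes6, a Hes relative that favours differentiation, had 223 and 206 UMIs, 10.9 and 6.83 CPM, a ratio of 0.630 (0.518 to 0.764). Its levels in GNP-like nuclei, 20.9 and 14.2 CPM, gave 0.682 (0.237 to 1.61).

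Lfng and Dtx4 lay just inside 1.5-fold on the higher side. Lfng, the fringe enzyme of astroglia here, had 232 and 507 UMIs and a ratio of 1.49 (1.27 to 1.75), with 115 and 128 CPM in the first astroglial cluster. Dtx4, a ubiquitin ligase, had 403 and 856 UMIs and a ratio of 1.45 (1.28 to 1.63), and in astroglial nuclei, with 87.6 and 105 CPM, 1.2 (0.971 to 1.48). Dtx4 was highest in microglia-like nuclei, at 136 CPM over both libraries. Lfng, Dtx4, Notch1 and Notch3 thus had whole-library ratios between 1.45 and 1.55, but they parted with the class shares held at control or cKO. Lfng then stayed at 1.37 and 1.29, while Dtx4 was at 1.16 under either, Notch1 at 1.14 and 1.17 and Notch3 at 1.09.

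**Figure D5:**
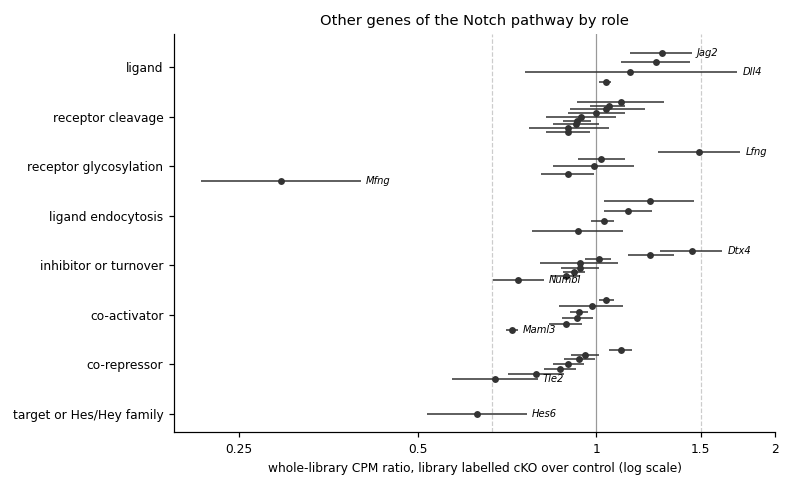
Whole-library CPM ratio, cKO-labelled library over control, of the 44 other pathway genes that passed 100 UMIs, by role, on a log axis with exact 95% counting intervals. Dashed lines mark 1.5-fold. Mfng at 0.295 and Hes6 at 0.630 lie past the lower line, and Lfng at 1.49 lies just inside the upper one.

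Tle1, Maml2 and Tle4 had the widest range between classes of the 44 genes, while other co-activators and co-repressors, such as Crebbp and Kdm5a, had some of the narrowest. Maml2, a co-activator of the Notch complex, was highest in oligodendrocyte lineage-like nuclei at 1878 CPM over both libraries. Its whole-library ratio was 1.04 (1.01 to 1.07), but its GNP-like level was 521 CPM in control against 311 CPM in the cKO-labelled library, a ratio of 0.597 (0.494 to 0.716). In astroglial nuclei, with 1660 and 1451 CPM, the ratio was 0.874 (0.832 to 0.919). Tle1, a Groucho-type co-repressor that Hes proteins recruit, had 255 and 145 CPM in GNP-like nuclei, a ratio of 0.567 (0.428 to 0.740). Fbxw7, which marks the Notch intracellular domain for destruction, had 115 and 188 CPM there, a ratio of 1.64 (1.25 to 2.12). These 3, of which 1 was higher and 2 were lower, were the genes past 1.5-fold among the 22 of the list with at least 100 UMIs in GNP-like nuclei. Over all genes with as many UMIs there, 7.80% were higher and 11.8% lower, so neither count exceeds that background.

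Other genes of the list had their peaks elsewhere. Dner, a ligand-like protein of neurons, was highest in Purkinje cell-like nuclei at 902 CPM and had a whole-library ratio of 1.04. Tle4, a co-repressor, was highest in cluster 23 at 797 CPM with a ratio of 1.10. Numb, an inhibitor of Notch, was highest in microglia-like nuclei at 745 CPM with a ratio of 0.889, and Numbl, its relative, in the dividing GNP-like cluster at 49.7 CPM with a ratio of 0.739. Neurl1a, which acts in ligand endocytosis, and the co-activator Maml1 were highest in microglia-like nuclei, at 120 and 217 CPM, with ratios of 1.13 and 0.982. Jag2, a ligand, was highest in CN-like nuclei at 44.5 CPM with a ratio of 1.29.

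In GN-like nuclei 41 genes of the list reached 100 UMIs, and 1 lay past 1.5-fold in each direction, near the 2.28% and 2.34% of all genes that were higher and lower. Dlk2, an atypical ligand, had 68 and 119 UMIs there, 11.7 and 18.8 CPM, a ratio of 1.62 (1.19 to 2.21). Tle2, a co-repressor, had 135 and 93 UMIs, 23.2 and 14.7 CPM, a ratio of 0.636 (0.483 to 0.834). In astroglial nuclei 28 genes of the list reached 100 UMIs and in interneuron-like nuclei 35 did, with 0 past 1.5-fold in either.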

How the data were processed

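Nuclei of 2 pooled mouse cerebellum libraries were captured with a droplet kit that reads transcripts from their 3′ end. The deposited values are raw UMI counts per gene and nucleus, which the authors made with Cell Ranger 7.0.1 on the GRCm38 mouse reference. No correction for free RNA was applied here. Nuclei over 25% mitochondrial UMIs were removed (1 control, 5 cKO). Doublet scores came from Scrublet (scanpy 1.11.5), and in each library the nuclei with the highest scores, 0.8% for every 1000 barcodes, were left out (189 of 4857 and 386 of 6946 barcodes). No minimum of genes was set.

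Libraries were integrated and clustered in Seurat 5.3.0 (R 4.3.3; canonical correlation on 30 dimensions, 3000 variable features per library, clustering on 20 dimensions at resolution 0.8). The members and the other pathway genes were left out of the features. Of 26 clusters, 21 were named after marker lists, with at least 3 markers in at least 10% of nuclei and at least 2-fold over other clusters, a mean log2 fold of at least 1 and a pseudocount of 5 CPM. A class ending in "-like" rests on these markers only. Clusters 3, 19 and 23 stayed unnamed by their markers, and clusters 1 and 4 for depth (median, times 3, under that of the library).

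The members, lists and marker rules were chosen with earlier results of these data known. All 10 members are named. Other genes are named where they passed 1.5-fold over a whole library, were among the 12 with the widest range between classes, or, chosen after their values were seen, passed 1.5-fold in a class. One gene that this rule names is not reported here. UMI sums were scaled to CPM. Intervals are exact 95% Poisson (levels), conditional binomial (ratios) and Clopper-Pearson (shares). A count of 0 was set at 3 counts for a bound. Thinned shares are the mean over all thinnings to 1000 UMIs, without shallower nuclei. Ratios at fixed composition weight class CPM by each class's share of UMIs. Orders of classes left out the low-depth nuclei and clusters with under 15 nuclei in a library. Alternatives covered scaling, doublets, depth, class definitions, count minimums and left-out clusters. The scripts were tested on simulated data. Gene positions are from GENCODE vM21 and promoters from RefSeq on GRCm38.p6. Computations used Python 3.11.15 with numpy 2.4.6, scipy 1.17.1, pandas 2.3.3 and matplotlib 3.10.9. There were 0 columns of other series.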

Additional observations from a re-analysis of the deposited data

How the results depend on the processing

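No paired analysis was possible because each group has 1 library. Over the alternatives, 67 of 70 whole-library ratios of the members moved by less than their counting interval, as did 180 of 193 ratios within classes. One alternative kept only neuronal nuclei without a glial marker UMI and astroglial nuclei without a neuronal one. Of the 13 ratios computed there, 6 moved by more. The named class in which a member was highest stayed first in 20 of 20 cases at the lower resolution and without integration, and in 12 of 20 with nuclei gated on their own markers. The exceptions, all ranked 2, were Notch1, Dll3 and Hey1 in control and Notch3, Dll1, Jag1, Hes5 and Hey1 in the cKO-labelled library, and the leading nuclei were erythroid for Dll3 and Hey1 in control and fibroblast and mural for Jag1. The whole-library ratio of Hes5 was 1.46 with nuclei thinned to 1000 UMIs. That of Rbpj was 0.845 without the cluster led by Mrc1 and 1.01 without GNP-like nuclei, 2 alternatives chosen after seeing the data. With cKO in place of control shares, the ratio at fixed composition was 0.960 for Jag1 and 0.90 for Rbpj. The number of members at least 1.5-fold higher was 0 with no doublets removed, where Notch1 was at 1.47, and 3 after thinning. The number at least 1.5-fold lower was 1 without GNP-like nuclei, where Dll3 was at 0.690. Among the other pathway genes, the number at least 1.5-fold higher was 2 at 20 UMIs or more, 3 with 1 UMI in each library, 1 with median-of-ratios scaling, 1 in nuclei with at least 1000 genes, 2 after thinning and 1 without low-depth clusters. The number lower was 1 in nuclei with at least 1000 genes, 1 without low-depth clusters and 1 without GNP-like nuclei. The causes were not tested.

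With nuclei gated on their own markers, the ratio of Hes5 in GN-like nuclei reversed to 0.940 and that of Jag1 was 0.348, and in GNP-like nuclei Notch1, Notch2 and Hes5 were at 2.24, 1.27 and 2.51. Nuclei without a glial marker UMI numbered 18 and 1 among GNP-like nuclei, and 0 astroglial nuclei lacked a neuronal one, so that alternative gave no value there. No cluster was named GABAergic progenitor, and the GABAergic interneuron-like class took its place. Of the 4 classes set beside all genes, GNP-like nuclei had the fewest UMIs, 421164 in the cKO-labelled library, where a count of 0 still allows 7.12 CPM.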
